A study of Mus musculus with 6 samples.

Results

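The 10 genes described here are 3 Notch receptors (Notch1, Notch2 and Notch3), 3 of their ligands (Dll1, Dll4 and Jag1) and 4 HES and HEY genes that Notch signalling is known to switch on (Hes1, Hes5, Hey1 and Hey2). They were taken by name, 10 of the 18193 genes for which the array platform's annotation gives a probe set naming no other gene. A gene with several probe sets is represented by the one whose mean over the 6 arrays is highest. The 10 genes have 17 such probe sets, and 4 of these have a mean below the log2 value of 5 that was used as the filter on dim probe sets. Hey2 has only 1 probe set, which lies below that value, so 9 of the 10 genes were tested.

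The series measured RNA from mouse embryos at embryonic day 13.5 on 6 arrays, 3 holding eye tissue of an albino genotype and 3 holding the same tissue of the pigmented control genotype. Tissue of 3 to 4 littermates was pooled for each array, and arrays of one genotype count as separate biological samples by their titles. The tissue is labelled as retinal pigment epithelium, the pigmented sheet behind the neural retina, and the labels' protocol has the lens, cornea, neural retina and tissue outside the eye dissected away, but the sample descriptions speak of the whole eye region. Neither the gene behind the albinism nor the strain of either genotype is named in the sources used here, and no transgene or treatment is named for either group.

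Notch receptors sit in the cell membrane and are activated by Delta-like and Jagged ligands on a touching cell. The bound receptor is cut first by an ADAM protease and then by gamma-secretase, and the freed intracellular part joins the DNA-binding protein RBPJ and a Mastermind coactivator to switch on HES and HEY genes, which encode bHLH repressors. In the embryonic eye the pathway is known for keeping retinal progenitors from differentiating, for Jagged signalling in the lens and for Dll4 signalling in growing vessels, and elsewhere in the head it keeps muscle progenitors from maturing.

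RBPJ binds DNA at a short motif, and the promoters of HES and HEY genes are the textbook place to find it. The RefSeq promoter table (build GRCm38.p6) held 8 of the 10 genes, all but Hes1 and Hey1, with 2 start sites for Dll1. In the 250 bases before the start site, the letters GTGGGAA, searched on both strands, occurred 2 times for Hes5 and 1 time for Hey2, and 0 times in the windows of Notch1, Notch2, Notch3, Dll1, Dll4 and Jag1. Of all 32851 windows of that length in the table, 5.42% held at least 1 match and 0.161% held 2 or more. The shorter letters TGGGAA, which lie inside the longer motif, gave the same counts for these genes and were present in 21.6% of all windows. The matches are shown because, among the 8 genes searched, they fell in target gene promoters alone. Of the target genes, only Hes5 and Hey2 could be searched. Each is read 5′ to 3′ on the strand that carries GTGGGAA, which stands in capitals, with 11 bases on either side. The 3 stretches lie at chr4:154960686-154960714 (minus strand), chr4:154960829-154960857 (plus strand) and chr10:30842973-30843001 (plus strand).
Hes5, 226 to 220 bases before the start: atgtccgggctGTGGGAAcgcgctcgccc
Hes5, 83 to 77 bases before the start: ggccgccgagtGTGGGAAcggccgcggcg
Hey2, 207 to 201 bases before the start: ttggcagaggcGTGGGAAtgccaccgcgc

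The whole 250-base window of Hey2, chr10:30842784-30843033 on the minus strand, shows its single match as TTCCCAC in capitals, since the motif lies on the opposite strand there.
Hey2: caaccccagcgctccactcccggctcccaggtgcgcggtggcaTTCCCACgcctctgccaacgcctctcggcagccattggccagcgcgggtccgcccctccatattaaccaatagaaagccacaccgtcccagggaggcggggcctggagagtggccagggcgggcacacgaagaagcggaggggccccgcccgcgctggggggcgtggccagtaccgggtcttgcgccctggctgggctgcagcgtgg
A match is a string of letters and not a shown binding site. The other motif searched was the N box CACNAG, known as a binding sequence of HES repressors, on both strands. It occurred in the windows of Notch1, Notch2 and Dll4 (1 match each) and Notch3 (2 matches), and in 36.7% of all windows.

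Values on the arrays are log2 RMA values, so a difference of 1 is a doubling, and levels of different probe sets are not compared as amounts. The arrays had medians of 5.19 to 5.22, and their number limits the precision. Most RPE genes checked read high on every array, such as the melanosome gene Pmel at 12.41 to 12.80 and Rlbp1 at 9.47 to 9.87. Rpe65 and Lrat had means of 3.23 and 3.02, and were the 2 genes of the list's 12 below the filter. The RPE list was lower in albino pools, at list means of 9.18 to 9.28 against 9.31 to 9.47, with all 10 tested genes lower. Of these the thyroxine carrier gene Ttr differed most (-0.56, limma unadjusted p = 0.0029, adjusted p = 0.644, no overlap). It was the only RPE gene at an unadjusted p under 0.05. Of all tested genes, 4.79% had such a p and 11.3% had genotypes that did not overlap. Skeletal muscle genes stood higher in albino pools, at list means of 8.51 to 9.22 against 7.07 to 7.97, with all 10 genes higher in albino. On pigmented arrays Pax7 read 4.30 to 4.63 and Myod1 read 4.61, 4.85 and 5.69. Every pigmented Pax7 value and most pigmented Myod1 values thus lay below 5. Pax7 passed the filter, at a mean of 5.07, only through its albino values of 5.36 to 6.07. Lens markers read 4.88 on albino replicate 3 and 7.03 to 7.34 on the other 5 arrays. Neural retina progenitor markers read 6.88, 7.27 and 7.64 on albino arrays 1, 2 and 3 and 7.28, 7.63 and 7.87 on the pigmented arrays, so the ranges overlapped while the albino array was the lower in each same-numbered pair.

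**Figure D1:**
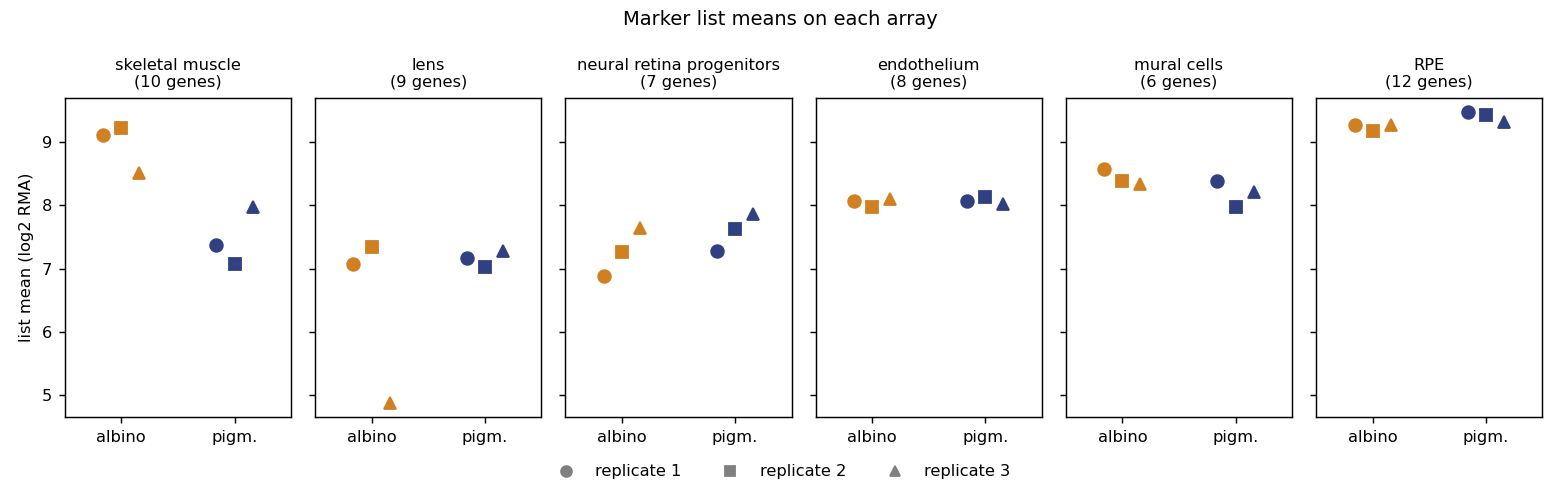
Mean log2 RMA value of 6 marker lists (vertical axis) on each of the 6 arrays, albino in orange and pigmented in blue, with 1 point for each array and the symbol giving the replicate number. The muscle list is higher on all 3 albino arrays (8.51 to 9.22) than on the pigmented arrays (7.07 to 7.97), and the lens list is low on albino replicate 3 alone (4.88).

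No Notch gene passed the test of albino against pigmented pools, and the values of every one overlapped between the genotypes. With limma and Benjamini-Hochberg adjustment over 23591 probe sets, 0 of the 9 tested genes had an adjusted p under 0.05, against 0% of all probe sets (0 of 23591). At an unadjusted p under 0.05 the counts were 0 of the 9 genes against 4.68% of probe sets (1104, or 611 without albino replicate 2 and 577 without pigmented replicate 2), which is no excess over the table. The differences of the 9 genes, albino minus pigmented, ran from -0.033 (Hes1) to 0.16 (Dll1), with a median of -0.0067, where all 12098 tested genes had a median of 0.043. All 9 lay within 0.2 of 0, as did 85.4% of all tested genes. In all 17 probe sets the values of the genotypes overlapped, whereas 10.8% of tested probe sets had genotypes that did not overlap. In tissue RNA of this kind, fewer cells of a type and less RNA per cell cannot be told apart.

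The intervals around these values say how large a change could have been missed. The 95% confidence interval of each tested gene covered 0, and its far end corresponded to a fold change of 1.18 for Notch2, the most tightly measured gene, and of 1.41 for Notch3, the least. Standard errors (SE) lay between 0.091 and 0.20. All adjusted p-values of the 9 genes were 0.999 (limma). With the replicate number as a block, the SE fell to between 0.063 and 0.085 and the smallest adjusted p was 0.337 (Dll1), again with 0 genes past the threshold, although 18.0% of probe sets then had an unadjusted p under 0.05.

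**Figure D2:**
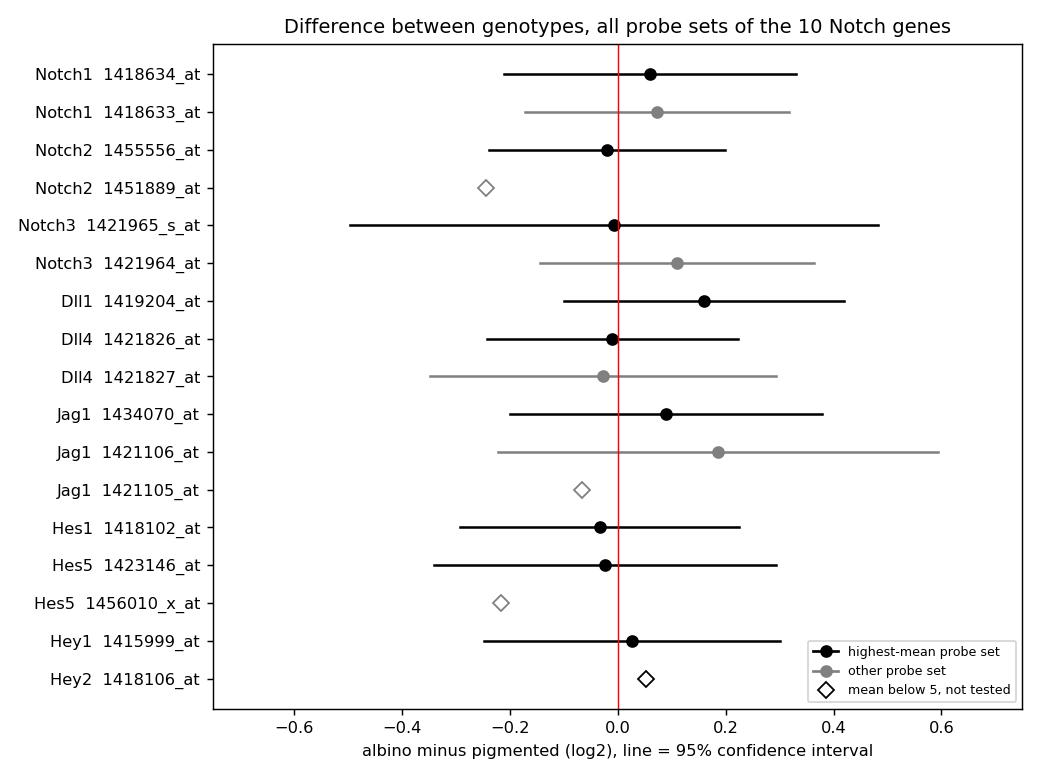
Albino minus pigmented difference (log2, horizontal axis) for all 17 probe sets of the 10 genes, with 95% confidence intervals from limma for the 13 probe sets tested and open diamonds for the 4 with a mean below 5. Every interval crosses 0, and the representatives, drawn in black, lie between -0.033 and 0.16.

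Among the receptors, Notch1 is known from retinal progenitors. It read 8.99, 8.70 and 8.68 on albino arrays 1, 2 and 3, and 8.73, 8.69 and 8.77 on the pigmented arrays in the same order. Albino replicate 1 was the only array set apart, and the other 5 lay within 0.09 of each other. Means were 8.79 ± 0.17 and 8.73 ± 0.04 (SD, n = 3 each), a difference of 0.060 (95% confidence interval -0.21 to 0.33). Without albino replicate 1 the difference was -0.040. The second Notch1 probe set, at a mean of 6.48, gave 0.073.

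Notch2, a receptor known from the ciliary body epithelium, had the narrowest spread of the 10 genes. Its arrays read 10.31, 10.25 and 10.17 for the albino and 10.30, 10.18 and 10.31 for the pigmented arrays, a range of 0.14 over all 6. The genotypes overlapped almost completely, with a difference of -0.020 (interval -0.24 to 0.20). Its other probe set has a mean of 4.16, below the filter, and gave -0.24 from arrays spanning 1.20 log2 units. That probe set was lower in albino in 3 of 3 same-numbered pairs.

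Notch3, the receptor known from the mural cells of vessels, varied most among the receptors. Its arrays read 9.22, 8.67 and 8.58 for the albino and 9.10, 8.68 and 8.71 for the pigmented arrays. Both replicate 1 arrays were high, and the remaining 4 arrays lay between 8.58 and 8.71. The means of 8.82 ± 0.35 and 8.83 ± 0.23 (SD, n = 3 each) differed by -0.0067 (interval -0.50 to 0.48). The second Notch3 probe set, at a mean of 6.30, gave 0.11 (SE 0.11). Mural cell markers had list means of 8.34 to 8.57 in albino and 7.97 to 8.38 in pigmented pools, overlapping between genotypes. The list was mixed. Of its 6 genes, 4 were higher in albino, Acta2 most (1.11), and 2 were lower, Pdgfrb (-0.25) and Rgs5 (-0.27). The part of mural cell markers in the Notch3 values was not tested.

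The ligand gene with the largest difference was Dll1, which encodes a Delta-like ligand of neural and muscle progenitors. It read 6.78, 6.83 and 6.62 for the albino and 6.72, 6.49 and 6.54 for the pigmented arrays. The highest pigmented array stood above the lowest albino array, so the genotypes overlapped, but the albino array was the higher in each of the 3 same-numbered pairs, by 0.060, 0.34 and 0.080. Means of 6.74 ± 0.11 and 6.58 ± 0.12 (SD, n = 3 each) gave 0.16 (interval -0.099 to 0.42, limma adjusted p = 0.999). Dll1 has a single probe set, so no second reading is to hand. The muscle list stood at 9.11, 9.22 and 8.51 on the albino arrays and at 7.37, 7.07 and 7.97 on the pigmented ones, a mean gap of 1.48, and its part in the Dll1 value was not tested.

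Dll4, the ligand of sprouting vessels, stayed close to the filter. Its arrays read 5.63, 5.40 and 5.51 for the albino and 5.54, 5.47 and 5.56 for the pigmented arrays, with a difference of -0.010 (interval -0.24 to 0.22). The second probe set, at a mean of 5.32, gave -0.027, so both readings were near 0. Endothelial markers also overlapped, at list means of 7.98 to 8.10 in albino and 8.03 to 8.13 in pigmented pools.

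Jag1 encodes the Jagged ligand best known in the eye from the lens and ciliary region. It read 9.14, 8.90 and 8.97 for the albino and 9.07, 8.92 and 8.75 for the pigmented arrays, with replicate 1 the highest array of both genotypes. Means of 9.003 ± 0.12 and 8.91 ± 0.16 (SD, n = 3 each) differed by 0.090 (interval -0.20 to 0.38). Without pigmented replicate 3 the difference was 0.0083. Albino replicate 3, the array with low lens markers, ranked in the middle of the 6 for Jag1, and without it the difference was 0.11. This is 1 array, and the part of lens RNA in the Jag1 values was not tested. A second probe set (mean 6.49) gave 0.19 (SE 0.17) and was higher in albino in 3 of 3 same-numbered pairs, while the third (mean 4.90, below the filter) gave -0.067.

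**Figure D3:**
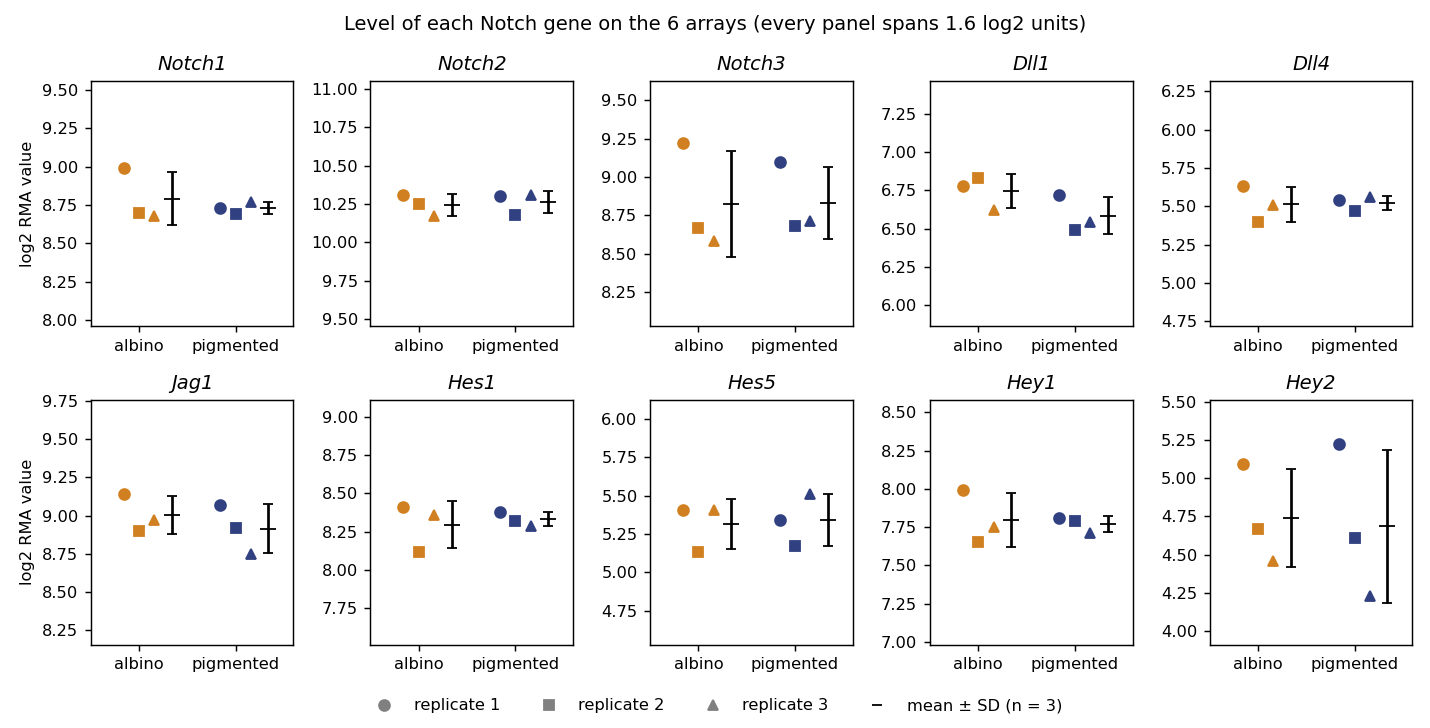
Log2 RMA value of the representative probe set of each of the 10 genes (vertical axis, 1.6 log2 units in every panel) on the 3 albino arrays in orange and the 3 pigmented arrays in blue, with symbols for replicates 1, 2 and 3 and black bars for the mean ± SD. The genotypes overlap in every panel, and the circles of replicate 1 stand above the other symbols in both genotypes for Notch3, Jag1, Hes1, Hey1 and Hey2.

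Of the target genes, Hes1 encodes a repressor that holds progenitors back from differentiation in many tissues. It read 8.41, 8.12 and 8.36 for the albino and 8.38, 8.32 and 8.29 for the pigmented arrays. Albino replicate 2 was the lowest array and the other 5 lay between 8.29 and 8.41, so the albino values enclosed all pigmented values. The difference was -0.033 (interval -0.29 to 0.22), and 0.055 without albino replicate 2.

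Hes5, a Notch target of neural progenitors and the gene with 2 RBPJ motif matches above, read close to the filter. Its arrays gave 5.41, 5.13 and 5.41 for the albino and 5.34, 5.17 and 5.51 for the pigmented arrays. The replicate 2 arrays were the lowest of both genotypes, and the difference was -0.023 (interval -0.34 to 0.29). The other Hes5 probe set, whose name ending marks probes that can bind other transcripts, had a mean of 4.84 and gave -0.22. Neural retina progenitor markers differed by a mean of -0.33 in the same pools, and 6 of the 7 genes were lower in albino in 3 of 3 same-numbered pairs. With the replicate block these 6 had unadjusted p-values of 0.0008 (Fgf15) to 0.045 (Lhx2), and none passed after adjustment (limma, smallest adjusted p = 0.192). With that block, 18.0% of all tested probe sets had an unadjusted p under 0.05. Without the block, a pairing taken from these data, the unadjusted limma p-values of the 6 were 0.084 (Rax) to 0.63 (Lhx2). The part of these markers in the Hes5 values was not tested.

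Hey1, a repressor gene induced by Notch in vessels and muscle, read 7.99, 7.65 and 7.75 for the albino and 7.81, 7.79 and 7.71 for the pigmented arrays. Again the albino values spanned the pigmented ones, with SDs of 0.17 and 0.053. Its difference of 0.027 (interval -0.25 to 0.30) became -0.070 without albino replicate 1 and -0.028 after cyclic loess scaling.

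Hey2, the related gene known from arterial vessels and heart, was below the filter, with a mean of 4.71. Its arrays read 5.09, 4.67 and 4.46 for the albino and 5.22, 4.61 and 4.23 for the pigmented arrays, the widest range of the 10 genes (0.99). Replicate 1 stood above replicates 2 and 3 by 0.53 in albino and by 0.80 in pigmented pools, while the genotypes differed by 0.053 (interval -0.61 to 0.72 when the filter was dropped). A value this low says little about whether the transcript was there.

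For every one of the 10 genes the range over the 6 arrays was larger than the genotype difference, and part of that range ran with the replicate number. In 8 of the 10 genes replicate 1 stood above the mean of replicates 2 and 3 in both genotypes. The exceptions were Notch1 and Hes5, where the pigmented difference was 0. The share of all tested genes that did so in both genotypes is not given here, so this count has no background. The 2 replicate 1 arrays together lay above the other 4 in all 9 tested genes, by a median of 0.13, but 78.7% of all 12098 tested genes did the same, with a median of 0.18. These counts rest on 1 probe set a gene. Of the 37 Notch and other pathway genes with several probe sets, 20 had them on both sides of 0 for replicate 1, among them Notch3 (0.50 and -0.0225), Notch1 (0.15 and -0.10) and Hes5 (0.070 and -0.31). Among the representatives, Notch3 (0.60 in albino, 0.41 in pigmented) and Hey2 exceeded the upper quartile over all genes (0.32) in both genotypes.

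A measure of RNA or labelling quality moved with replicate 1 as well. The array's control probe sets at the 3′ end of Gapdh read above those at its 5′ end by 0.70 and 0.86 on the replicate 1 arrays (albino, pigmented) and by 0.50 to 0.68 on the other arrays. For beta actin the values were 1.04 and 1.35 against 0.86 to 1.01. Their part in the replicate 1 shift of the Notch genes was not tested.

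**Figure D4:**
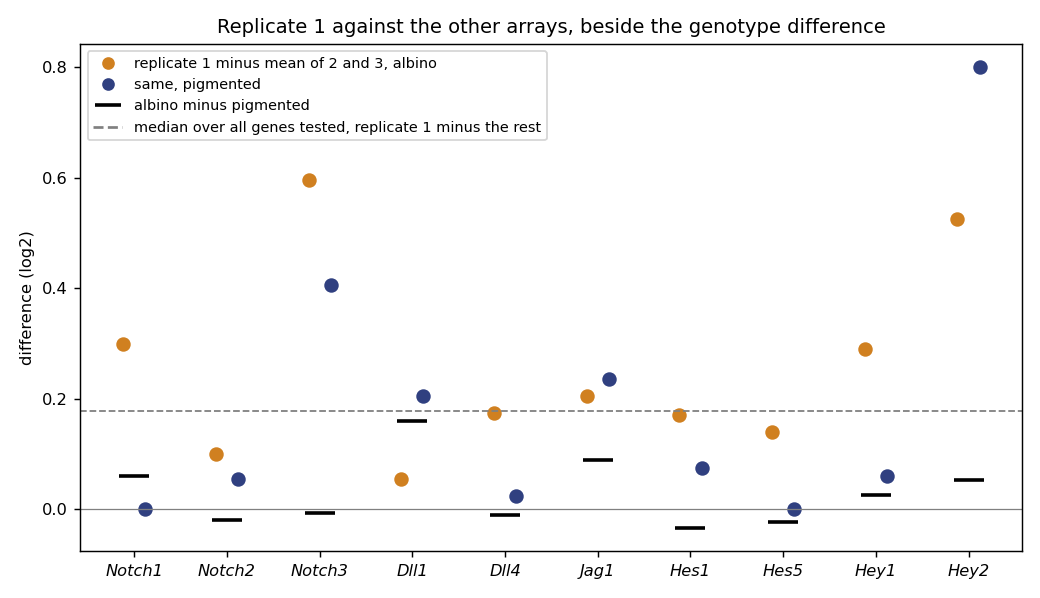
For each of the 10 genes, the difference (log2, vertical axis) of replicate 1 from the mean of replicates 2 and 3 in albino (orange) and pigmented (blue) pools, with the albino minus pigmented difference as a black bar and the median replicate 1 difference of all tested genes (0.18) as a dashed line. The dashed line takes both genotypes together, unlike the points. For Notch3 and Hey2 the replicate difference (0.41 to 0.80) is far above the genotype difference (-0.0067 and 0.053).

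Genes whose arrays ran most like those of a Notch gene were sought by the root mean square difference of centred values over the 6 arrays, for the 3 genes of widest range. Nearest to Hey2 among 12098 tested genes were Slitrk6 (0.047), Ranbp17 (0.072) and Sphk1 (0.081). Nearest to Notch3 were Lrrn3 (0.023), Npepl1 (0.025) and Nsg2 (0.030), and nearest to Jag1 were Ttc17 (0.015), Stoml2 (0.017) and Ube2a (0.017). Since they were chosen for these array values, their genotype differences and replicate pattern follow from the choice.

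The rest of the pathway was read from a list of further genes, of which 46 were analysed here and 41 passed the filter. With limma 0 of 41 had an adjusted p under 0.05. At an unadjusted p under 0.05 there were 4 of 41, all higher in albino pools, against 4.79% of all 12098 tested genes (3.47% higher and 1.31% lower), and the 4 became 2 without albino replicate 1 and 1 without albino replicate 2 or pigmented replicate 2. The median difference of the 41 genes was 0.010 against 0.043 over all genes, and 5 of 41 had genotypes that did not overlap, near the 11.3% of all tested genes.

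The largest difference in the pathway was that of Dlk1, which encodes a Delta-like membrane protein without the ligand domain that activates Notch. It read 8.69, 8.24 and 8.04 for the albino and 7.80, 7.38 and 7.55 for the pigmented arrays, and every albino array stood above every pigmented one. Means of 8.32 ± 0.33 and 7.58 ± 0.21 (SD, n = 3 each) gave 0.75, or 1.68-fold, with an SE of 0.19 and a limma adjusted p = 0.770, which did not pass. Its second probe set, at lower signal, gave 0.21 (SE 0.23) with overlapping genotypes. Muscle list means were 8.51 to 9.22 on those 3 albino arrays against 7.07 to 7.97, and their part in the Dlk1 difference was not tested.

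Dner, a neuronal protein gene related to Delta, read 8.34, 7.98 and 7.52 for the albino and 7.69, 6.94 and 7.65 for the pigmented arrays, where the lowest albino array lay below 2 pigmented arrays (0.52, SE 0.28). The difference fell to 0.28 without pigmented replicate 2 and to 0.32 without albino replicate 1, and the second probe set gave 0.27. The other receptors and ligands gave small values, with the endothelial receptor gene Notch4 at -0.040, Jag2 at -0.010 and Dlk2 at 0.027. Dll3, a Delta-like gene that does not activate receptors, had a mean of 4.11 and was not tested.

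The representative probe sets of genes that modify, present and cut the receptor gave differences within 0.2 of 0. Of the fringe and fucosyl or glucosyl transferase genes, 4 passed the filter, and those with the smallest p were Mfng (-0.12, SE 0.21) and Poglut1 (0.087, SE 0.17), while Lfng lay below the filter at a mean of 4.88. The ubiquitin ligase genes that drive ligand endocytosis, Mib1 and Mib2, gave -0.11 (SE 0.11) and 0.090 (SE 0.17). Of the other Mib1 probe sets, both of lower signal, one gave -0.33 (SE 0.13, limma unadjusted p = 0.038) with genotypes that did not overlap and the other gave 0.017. Among 8 cleavage genes, Adam10, the protease gene of the first cut, gave -0.12 (SE 0.086), with all 3 albino arrays (10.96 to 11.03) below all pigmented arrays (11.04 to 11.17), and the gamma-secretase subunit gene Ncstn gave 0.15 (SE 0.13). A second Adam10 probe set gave 0.15, opposite in sign.

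In the nucleus, Rbpj, the DNA-binding partner itself, read 9.89, 9.51 and 9.50 for the albino and 9.82, 9.29 and 9.43 for the pigmented arrays. Its difference of 0.12 (SE 0.18) was below the 0.42 by which replicate 1 exceeded the other arrays, and its other 2 probe sets gave 0.11 and 0.20. Snw1, which encodes a protein of the transcription complex, gave -0.057 (SE 0.11), and another of its probe sets, at lower signal, gave -0.38 (SE 0.15) with overlapping genotypes. Among 9 tested negative regulators, the Deltex genes Dtx2 (-0.10, SE 0.11) and Dtx1 (0.14, SE 0.17) had the smallest p. Nrarp, a feedback inhibitor gene that is itself a Notch target, gave 0.067 (SE 0.25), with its replicate 1 arrays 0.63 above the others.

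The remaining genes at an unadjusted p under 0.05 were Hes6 and both of Tle1 and Tle2. Hes6, a family member that is known to oppose Hes1 and to mark differentiating neurons and myoblasts, read 8.48, 8.47 and 8.30 for the albino and 7.99, 8.05 and 8.22 for the pigmented arrays. Its genotypes did not overlap, though albino replicate 3 and pigmented replicate 3 lay only 0.080 apart. The difference was 0.33 (SE 0.11, limma adjusted p = 0.946), and the second probe set gave 0.30 (SE 0.088) without overlap. In the second probe set pigmented replicate 3 (7.01) was instead the array farthest from the albino values (7.27 to 7.40). In the muscle marker list replicate 3 was the array of each genotype nearest to the other genotype (8.51 and 7.97), and the part of muscle RNA in the Hes6 values was not tested. Heyl, the third HEY family gene, gave -0.12 (SE 0.091).

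Tle1 and Tle2 encode Groucho-type co-repressors that HES proteins recruit. Tle2 read 7.30, 7.09 and 6.90 for the albino and 6.87, 6.50 and 6.77 for the pigmented arrays. Tle1 gave 0.25 (SE 0.10), or 0.11 with overlapping genotypes from a second probe set. In the representative probe set of either gene the genotypes did not overlap. The Tle2 difference of 0.38 (SE 0.15) did not pass after adjustment (limma adjusted p = 0.999, and the same for Tle1). Of the other family members, Tle3 gave -0.15 (SE 0.14) and Tle4 gave 0.0067 (SE 0.16).

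**Figure D5:**
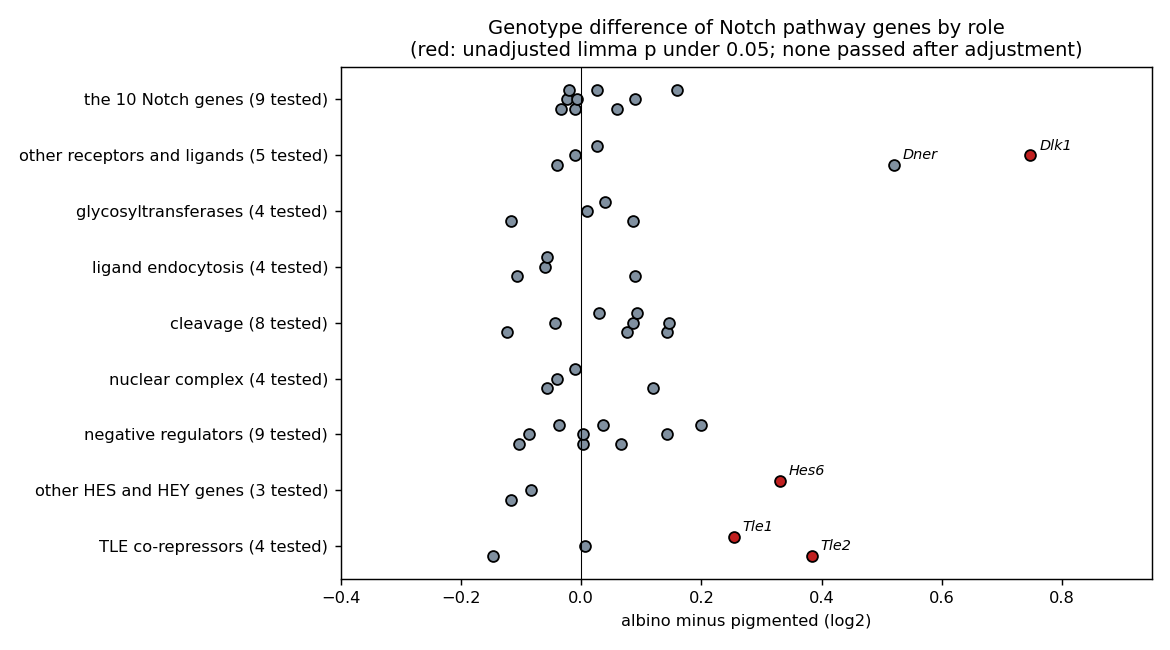
Albino minus pigmented difference (log2, horizontal axis) of the 9 tested Notch genes and of the 41 other pathway genes tested, 1 point a gene, grouped by role, with genes at an unadjusted limma p under 0.05 in red. The 9 Notch genes lie between -0.033 and 0.16, and the genes farthest to the right are Dlk1 (0.75), Dner (0.52), Tle2 (0.38) and Hes6 (0.33).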

How the data were processed

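The authors' deposited table holds log2 RMA expression values, made with Affymetrix Expression Console 1.1 per the submitters' processing notes. RMA corrects background, quantile-normalizes the arrays and summarises each probe set, so differences are relative to the other probe sets. Per the labels, 100 ng of RNA went into a 3′ labelling kit. The table has 45101 probe sets, 64 of them controls. The platform annotation gives 34945 probe sets 1 gene, 932 several and 9160 none, and 34741 of the first matched a GRCm38.p6 gene table by Entrez ID. Controls and probe sets with a mean below 5 were left out. Genotypes were compared with limma 3.58.1 (R 4.3.3; lmFit, eBayes, two-sided) as albino minus pigmented over 23591 probe sets, with Benjamini-Hochberg adjustment and a threshold of 0.05. The procedure was tested on simulated data. Both genotypes carry replicate numbers 1, 2 and 3, and the labels give no meaning for them. Same-numbered arrays deviated together from their genotype means (r = 0.863, 0.687 and 0.448 across probe sets), so the pairing was taken from the data. The 10 genes and all lists were chosen with earlier results of these data known. Named pathway genes are up to 2 of each role list with the smallest p; Notch4, Jag2, Dlk2, Dll3, Lfng, Nrarp, Tle3 and Tle4 were added after their values were seen. Alternatives were 2 scalings, 2 filters, the replicate block, array weights, other choices of probe sets, another eBayes setting and fewer arrays.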

Additional observations from a re-analysis of the deposited data

How the results depend on the processing

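Under all 16 alternatives tried, 0 probe sets, 0 Notch genes and 0 other pathway genes passed the adjusted threshold, and 0 Notch genes had an unadjusted p under 0.05 (limma). The median difference of the Notch genes (-0.0067) moved by less than the spread between arrays (SD 0.094) in each of them. The replicate block and the other eBayes setting could not move this median. The sign of the median was not stable, as it ran from -0.068 without albino replicate 1 to 0.070 without albino replicate 2. Probe sets at an unadjusted p under 0.05 numbered 1104 of 23591. They numbered 4243 with the replicate block, 3510 with array weights and 3009 without both replicate 1 arrays. With 1 array left out they numbered 577 to 1414, lowest without pigmented replicate 2 and 611 without albino replicate 2. When the probe sets of a gene were averaged, 510 of 11068 genes had such a p. Of the 1104, 68.8% were higher in albino pools, against 51.9% after cyclic loess. The pathway count of 4 became 2 after cyclic loess and without both replicate 1 arrays, and 1 to 5 with 1 array left out. The replicate block changed no other call. Dll1 (0.11 to 0.23) and Jag1 (0.0083 to 0.17) kept their sign in 16 of 16 alternatives, as did Dlk1 (0.21 to 0.89), Hes6 (0.24 to 0.40), Tle1 (0.17 to 0.31) and Tle2 (0.28 to 0.48). Some of the 16 could not change these differences, such as the 2 filters, the replicate block and the other eBayes setting. Agreement under those settings was fixed in advance. Signs turned for Notch1 with array weights (-0.034) and without both replicate 1 arrays (-0.040), for Hey1 with array weights (-0.031), without both replicate 1 arrays (-0.050) and after cyclic loess (-0.028), and for Notch3 with probe sets averaged (0.052) and with probe set names ending in _x_at or _s_at left out (0.11). With the latter, Dtx2 gave 0.080, and with averaging Ncstn gave -0.053. With 1 array left out the range crossed 0 for Dll4 -0.068 to 0.047, Dtx1 -0.032 to 0.24, Hes1 -0.09 to 0.055, Hes5 -0.11 to 0.07, Hey1 -0.07 to 0.10, Hey2 -0.17 to 0.32, Mfng -0.30 to 0.042, Mib2 -0.063 to 0.21, Notch1 -0.04 to 0.12, Notch2 -0.062 to 0.017, Notch3 -0.20 to 0.13, Poglut1 -0.062 to 0.20, Rbpj -0.0083 to 0.27 and Snw1 -0.12 to 0.013. None of the values that turned had passed the threshold, and the cause was not tested.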
